A study of Rattus norvegicus with 8 samples.

Results

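The miR-143 and miR-145 cluster is represented in the table of kidney miRNA counts by 4 of 620 rows, rno-miR-143, rno-miR-143*, rno-miR-145 and rno-miR-145*. The rows were chosen by name as every arm of the miR-143 and miR-145 hairpins and not by how they changed, although earlier results of these data were known. Small RNA was sequenced from the kidneys of 4 male rats treated with aristolochic acid (AA), a nephrotoxic and carcinogenic plant compound, and of 4 male control rats, with a library for each rat. All 8 rats were Big Blue transgenic animals on the Fisher 344 strain, which carry a reporter transgene for mutation assays, and were 18 weeks old when sampled. AA was given as its sodium salt by gavage at 10.0 mg/kg in a volume of 4 ml/kg, 5 times a week from an age of 6 weeks, and control rats received 0.9% sodium chloride at the same times. Dosing lasted 12 weeks by the treatment protocol, whereas the description of each animal gives 12 weeks for rat 1, 13 for rat 2, 14 for rat 3 and 15 for rat 4 in both groups. RNA came from pieces of whole kidney in which cell types had not been separated.

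miRNAs are short RNAs that are cut from a hairpin and lower the output of mRNAs whose sequence pairs with their seed. miR-143 and miR-145 are cut from a shared primary transcript that is switched on by serum response factor and its partner myocardin in smooth muscle cells, and they are known for keeping these cells in their contractile state. In the kidney such cells form the walls of arteries and arterioles, with pericytes along the smaller vessels. The best known target of miR-145 is the transcription factor Klf4, and that of miR-143 is Elk1. In the names used by the table, the asterisk marks the arm of the hairpin that is usually the less abundant.

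The mature sequences are given because the members come from neighbouring hairpins and yet carry different seeds. They are written 5′ to 3′ with the seed, bases 2 to 8, in capitals, from the RefSeq miRNA table of the GRCr8 assembly.
rno-miR-143 (3p arm): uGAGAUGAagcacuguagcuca
rno-miR-143* (5p arm): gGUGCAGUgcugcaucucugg
rno-miR-145 (5p arm): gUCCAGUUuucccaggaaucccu
rno-miR-145* (3p arm): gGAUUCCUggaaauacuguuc
No 2 of these seeds are the same, and 0 other mature miRNAs among the 693 names of the table share any of them. The mature miRNA nearest to each member differed from it by at least 6 single-base edits, so that reads of a member have no near copy among these sequences. The mature lengths were 22 bases for miR-143, 23 for miR-145 and 21 for both asterisk arms, and the gel band cut for the libraries held RNA of 22 to 30 nt by the labels. The asterisk arms therefore lie just below the stated band, and the part of this in their low counts was not tested.

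Both hairpins lie on the minus strand of chromosome 18 in GRCr8. Mir143 spans 57371349 to 57371453 (105 bases) and Mir145 spans 57369983 to 57370070 (88 bases), with 1278 bases between them. The long noncoding RNA gene Carmn, also listed as Mir143hg, overlaps both hairpins, and no other miRNA gene lies within 100 kb. Within these hairpins, miR-143 takes 57371373 to 57371394, miR-143* 57371408 to 57371428, miR-145 57370033 to 57370055 and miR-145* 57369997 to 57370017. The deposited counts name no genome build, and the coordinates describe the RefSeq entries only.

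The counts on miRNAs summed to 13412373 to 15616670 per library. Counts were divided by size factors of 0.818 to 1.28 that set the median miRNA of each library to a common level, and the results are called normalized counts. miR-21, a miRNA known to increase in injured tissue, took 2.51% to 3.39% of a control library and 7.43% to 19.2% of an AA-treated library. That lowers the share left for all other miRNAs together, but not for each of them. With total counts as the scaling, the median log2 fold change was 0.27 over the 305 miRNAs with at least 10 counts in every rat. No library was a copy of another, since chi-square per degree of freedom was at least 296 between 2 rats of a group. The miRNAs listed for tubule epithelium had summed normalized counts of 357213 or more in every library. Rats are taken as separate animals, and PCR reads are not independent molecules, so counting intervals are not given.

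miR-143 was among the most abundant miRNAs of the kidney, and AA-treated rats had 1.33-fold less of it by mean normalized count, without passing the test. Its normalized counts in control rats 1 to 4 were 2544650, 3532450, 2697060 and 2968800. In AA-treated rats 1 to 4 they were 2660290, 2162720, 2054550 and 1949960. AA-treated rats 2, 3 and 4 lay below every control rat, whereas AA-treated rat 1 lay above control rat 1, so the groups overlapped. The group means were 2935740 ± 434769 and 2206880 ± 314510 (SD, n = 4 each). The log2 fold change was -0.41 (SE 0.19, 95% interval -0.82 to -0.01), with an adjusted p of 0.200 by edgeR's quasi-likelihood test over all 620 rows. The interval of this single row lies just below 0, and its unadjusted p by edgeR was 0.0475. An exact two-sided permutation test of the normalized counts gave p = 0.0571 (n = 4 each). In bulk tissue, fewer cells of a type and less RNA per cell cannot be told apart. Without both rats numbered 4, the log2 fold change of miR-143 was -0.34 (SE 0.19, adjusted p = 0.360 by edgeR).

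As a share of the library, miR-143 took 16.1%, 21.9%, 18.3% and 17.7% of the counts in control rats 1 to 4. It took 17.7%, 18.2%, 15.1% and 15.3% in AA-treated rats 1 to 4. These shares overlapped more than the normalized counts did, with AA-treated rats 1 and 2 inside the control range. The other members added little, since the whole cluster took 16.1% to 22.0% of control libraries and 15.2% to 18.3% of AA-treated libraries. With the counts of miR-21 left out of the total, the cluster took 16.7% to 22.6% of control and 16.4% to 21.1% of AA-treated libraries, nearly the same range. The fold change of miR-143 therefore depended on the scaling. With total counts in place of size factors, it was -0.16 on the log2 scale (adjusted p = 0.528 by edgeR), and that scaling moved the median miRNA by 0.26. Relative to the median miRNA, miR-143 stood at -0.41 with size factors and at -0.43 with total counts.

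Places are by mean normalized count, which is not corrected for how well each miRNA is captured in a library, and mature miRNAs are of nearly equal length. miR-143 held place 2 in both groups. In control rats it stood between miR-378, with 4260970 ± 603357 normalized counts, and miR-30a, with 1850150 ± 126462 (SD, n = 4 each). The control values of miR-143 overlapped those of miR-378 and lay above all those of miR-30a. In AA-treated rats it stood between miR-378, with 2459050 ± 338681, and miR-21, with 1825990 ± 708355 (SD, n = 4 each), and its values overlapped both. Within single libraries it held place 2 in all 4 control rats and places 1, 1, 2 and 3 in AA-treated rats 1 to 4. A log2 fold change below 0 was usual among abundant miRNAs, since 18 of the 20 with the highest mean had one, with a median of -0.34 and 8 of them lower than miR-143. That set of 20 was chosen after its values were seen.

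miR-145, the other main product of the cluster, did not pass the test, with a mean 1.16-fold higher in the AA-treated rats. Its normalized counts were 7847, 9552, 9616 and 6409 in control rats 1 to 4. They were 8415, 10675, 10303 and 9427 in AA-treated rats 1 to 4. AA-treated rats 2 and 3 lay above every control rat, control rat 4 was the lowest of all 8, and the groups overlapped. The means were 8356 ± 1535 and 9705 ± 1007 (SD, n = 4 each), and the log2 fold change was 0.22 (SE 0.19, 95% interval -0.19 to 0.62, adjusted p = 0.496 by edgeR). Changes larger than 1.54-fold higher lie outside this interval. Without both rats numbered 4, the log2 fold change was 0.13 (adjusted p = 0.603 by edgeR).

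miR-145 held place 63 by mean level in both groups. In control rats it stood between miR-451, abundant in red cells, with 9171 ± 2084 normalized counts, and miR-15b, with 8130 ± 1059 (SD, n = 4 each). In AA-treated rats it stood between miR-20a, with 9709 ± 1816, and miR-181a, with 9150 ± 1524 (SD, n = 4 each). In each case the values overlapped those of miR-145, so its place among them was not resolved.

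The asterisk arms were read far less often, and neither passed the test. miR-143* had normalized counts of 632, 840, 798 and 536 in control rats 1 to 4 and of 690, 706, 753 and 735 in AA-treated rats 1 to 4. All 4 AA-treated values lay inside the control range. The means were 702 ± 142 and 721 ± 28.4 (SD, n = 4 each), and the log2 fold change was 0.04 (SE 0.21, 95% interval -0.42 to 0.50, adjusted p = 0.917 by edgeR). The coefficient of variation of miR-143* was 20.3% in control rats and 3.94% in AA-treated rats, against medians of 18.6% and 23.5% over the 305 miRNAs with at least 10 counts in every rat. miR-145* had normalized counts of 236, 257, 234 and 186 in control rats 1 to 4 and of 245, 255, 299 and 182 in AA-treated rats 1 to 4. The rats numbered 4 were the lowest of both groups, which overlapped. The means of miR-145* were 228 ± 30.2 and 245 ± 48.4 (SD, n = 4 each), and the log2 fold change was 0.10 (SE 0.24, 95% interval -0.41 to 0.61, adjusted p = 0.819 by edgeR). For both arms, the sign of the log2 fold change turned in some of the other settings, so no direction is given.

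By mean level miR-143* held place 139 in control and 141 in AA-treated rats, and miR-145* held places 188 and 195. The neighbours of miR-143* were miR-210 and miR-125b* in control rats and miR-200b* and miR-328a in AA-treated rats. Those of miR-145* were miR-201 and miR-335 in control rats and miR-204 and miR-138 in AA-treated rats. The values of every neighbour overlapped those of the arm beside it. The table also lists a row rno-mir-143* in lower case, outside the naming rule, with 5 to 17 counts per rat, a log2 fold change of -0.35 and an adjusted p of 0.670 by edgeR. What that row counts is not stated in the sources used here.

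**Figure D1:**
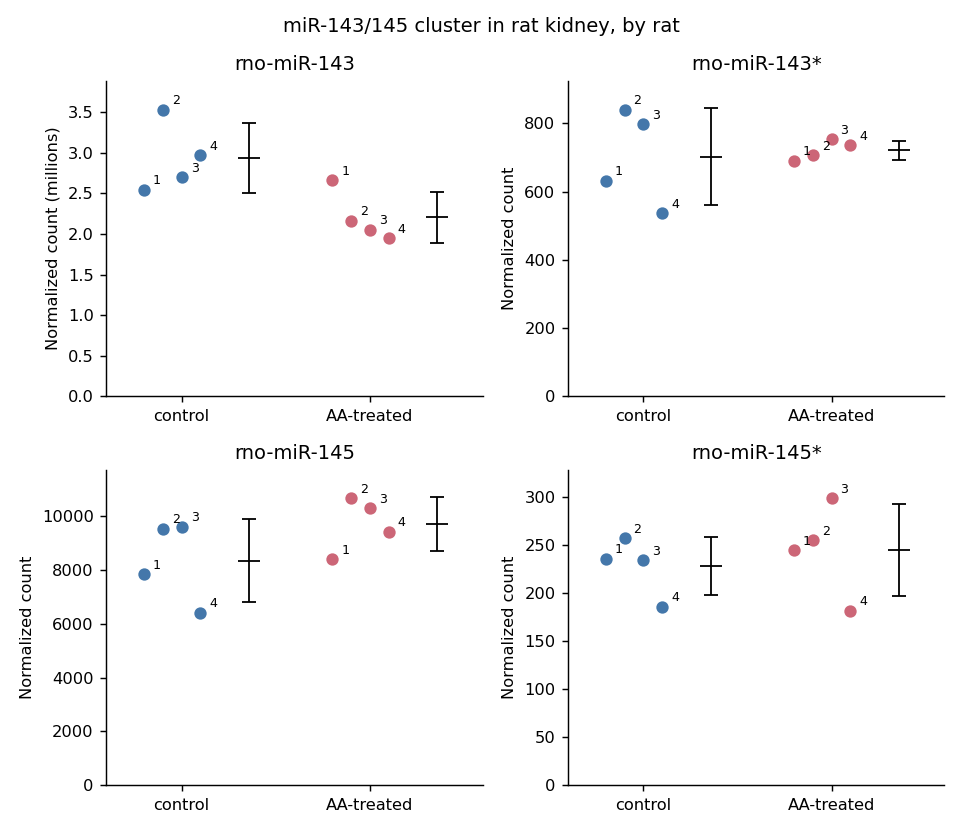
Normalized counts of the 4 cluster members (y axis, from 0, with miR-143 on a scale of its own) in each control and AA-treated rat (points, labelled with the rat number), with the mean and SD of the group beside them. AA-treated rats 2, 3 and 4 sit below all control rats for miR-143, and the groups overlap for every member.

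None of the 4 members was called differentially expressed, which required an adjusted p under 0.05 and means more than 1.5-fold apart. Over all 620 rows 36 were called higher (5.81%) and 20 lower (3.23%), 56 in all (9.03%). With total counts in place of size factors the split was 58 higher and 11 lower, and again no member was called. The median log2 fold change of all rows was 0.05, and that of the 4 members and the lower-case row together was 0.04. Among the 305 miRNAs with at least 10 counts in every rat, the log2 fold change of miR-143 lay at percentile 22.6 and that of miR-145 at percentile 66.6.

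**Figure D2:**
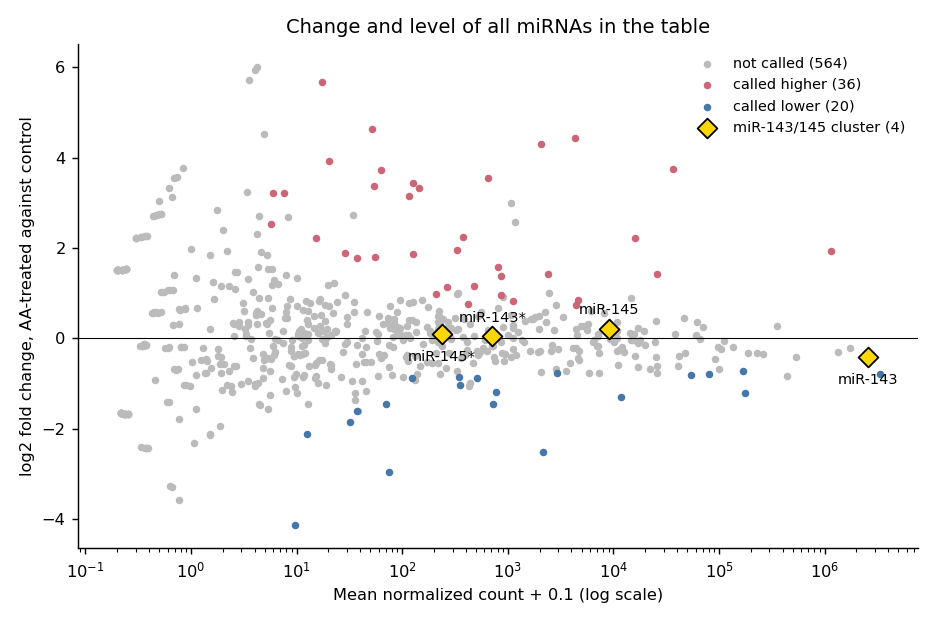
Mean normalized count plus 0.1 (x axis, log scale) and log2 fold change of AA-treated against control rats (y axis) for all 620 rows, with rows called higher in red (36), rows called lower in blue (20) and the 4 cluster members as yellow diamonds. miR-143 lies near the right edge at -0.41, miR-145 at 0.22, and both asterisk arms lie close to 0.

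Ratios within a library do not depend on the scaling, and they set the products of the cluster against each other. Of the 7 ratios tested, 4 were chosen after their values were known, and p-values were adjusted over all 7. The smallest p that an exact permutation test can give over the 70 labelings of 8 rats is 0.0286. Per 1000 counts of miR-143, control rats 1 to 4 had 3.08, 2.70, 3.57 and 2.16 counts of miR-145. AA-treated rats 1 to 4 had 3.16, 4.94, 5.01 and 4.83. AA-treated rats 2, 3 and 4 lay above every control rat, and AA-treated rat 1 lay within the control range. The means were 2.88 ± 0.595 and 4.49 ± 0.886 (SD, n = 4 each), and the mean log2 ratio was 0.64 higher (SE 0.22), or 1.56-fold, with p = 0.0571 by the exact two-sided permutation test and 0.133 after adjustment. Without AA-treated rat 1, the only treated rat within the control range, the difference was 0.80 and the groups no longer overlapped. The exact permutation p was then 0.0286, unadjusted. This is the smallest that the remaining rats allow, so it adds no support. Without both rats numbered 4 the difference was 0.47.

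The ratio between the 2 arms of the miR-143 hairpin had a like pattern over the rats, but it has the same denominator, miR-143. It is therefore not a separate result, and miR-143* itself had a log2 fold change of 0.04. Per 1000 counts of miR-143, miR-143* had 0.248, 0.238, 0.296 and 0.181 counts in control rats 1 to 4 and 0.259, 0.327, 0.367 and 0.377 in AA-treated rats 1 to 4. AA-treated rats 2, 3 and 4 again lay above every control rat. The means were 0.241 ± 0.0473 and 0.332 ± 0.0533 (SD, n = 4 each), with a log2 difference of 0.47 (SE 0.19), or 1.39-fold, with an exact permutation p of 0.0571 and 0.133 after adjustment. Without both rats numbered 4 this difference was 0.28, with an exact p of 0.200 (n = 3 each).

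miR-145 and miR-143*, the 5p arms of the 2 hairpins, kept a narrow ratio in control rats. There were 12.4, 11.4, 12.0 and 11.9 counts of miR-145 per count of miR-143* in control rats 1 to 4, and 12.2, 15.1, 13.7 and 12.8 in AA-treated rats 1 to 4. The means were 11.9 ± 0.434 and 13.5 ± 1.26 (SD, n = 4 each), and AA-treated rat 1 alone among the treated rats lay within the control range. The log2 difference was 0.17 (SE 0.07), or 1.12-fold, with an exact permutation p of 0.0571 and 0.133 after adjustment. Without AA-treated rat 1 it was 0.21 and the groups no longer overlapped. The unadjusted exact permutation p was then 0.0286, the smallest that the remaining rats allow, so it adds no support.

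The arms of the miR-145 hairpin did not differ in this way beyond the spread between rats. Per 1000 counts of miR-145, miR-145* had 30.1, 26.9, 24.4 and 29.0 counts in control rats 1 to 4 and 29.1, 23.9, 29.0 and 19.3 in AA-treated rats 1 to 4. The log2 difference was -0.14, with an exact permutation p of 0.457 and 0.640 after adjustment. The ratio of miR-145* to miR-143* was 330 ± 36.8 per 1000 in control and 340 ± 64.6 in AA-treated rats (SD, n = 4 each), with an exact permutation p of 0.914 before and after adjustment.

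**Figure D3:**
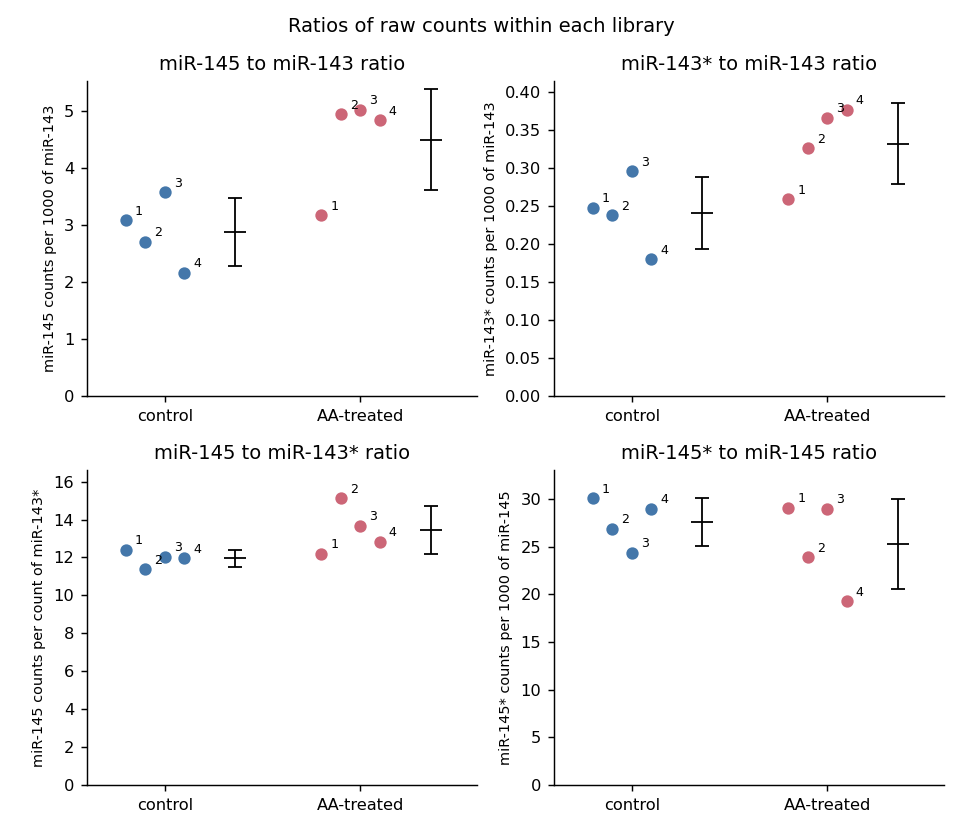
Ratios of raw counts within each library (y axes, from 0) in control and AA-treated rats (points, labelled with the rat number), with the mean and SD of the group beside them. AA-treated rats 2, 3 and 4 sit above all control rats for miR-145 per miR-143 and for miR-143* per miR-143, and AA-treated rat 1 sits among the control rats in both. These 2 ratios share the denominator miR-143 and are not separate results.

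The cluster was also set against miR-126, the miRNA of the vessel lining, and neither ratio passed the test. The other arm of that hairpin, miR-126*, was not used for a ratio. Its log2 fold change was -0.62 (adjusted p = 0.301 by edgeR), against -0.23 for miR-126, so the ratios hold for the arm used. There were 22.1, 34.1, 30.5 and 21.2 counts of miR-143 per count of miR-126 in control rats 1 to 4, and 23.4, 33.8, 23.1 and 17.1 in AA-treated rats 1 to 4. Only AA-treated rat 4 lay outside the control range. The log2 difference was -0.16 (SE 0.26), with an exact permutation p of 0.629 and 0.733 after adjustment. For miR-145, the ratio per 1000 counts of miR-126 was 78.7 ± 27.5 in control and 110 ± 42.0 in AA-treated rats (SD, n = 4 each), with a log2 difference of 0.48 (SE 0.38) with an exact permutation p of 0.286 and 0.50 after adjustment. Between rats of the same number, miR-145 per miR-126 was higher in the AA-treated rat in 4 of 4 pairs, as were miR-145 per miR-143, miR-143* per miR-143 and the normalized count of miR-145. An exact sign-flip test over these pairs gave p = 0.125 for each of the 3 ratios, the smallest that 4 pairs allow. These ratios share the counts of miR-145 or of miR-143, so they are not separate results. The miR-143 to miR-126 ratio was higher in 1 pair and lower in 3.

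The members of the cluster were also compared with each other across the 8 rats. For miR-145 with miR-143*, Pearson's r on log2(normalized count + 1) was 0.84 (exact permutation p = 0.0114, 0.0685 after adjustment over 6 pairs of members) and Spearman's rho was 0.67 (exact permutation p = 0.0831, 0.453 after adjustment). It was 0.99 within the control rats and 0.50 within the AA-treated rats, and 0.68 without the 2 rats farthest from the median of miR-143*. For miR-145 with miR-143, r was -0.43 (exact permutation p = 0.289, 0.433 after adjustment) and rho was -0.33 (exact permutation p = 0.428, 0.642 after adjustment). That r was 0.22 within the control rats and -0.68 within the AA-treated rats, and it was -0.08 for deviations from the group means. Leaving out control rat 2 brought it to -0.75 (exact permutation p = 0.0466), and leaving out the 2 rats farthest from the median of miR-143 to -0.82, so the pooled value rested on single rats. The difference between the 2 correlations was not tested, and all members of a rat share its library and size factor. The other pairs gave r of 0.59 for miR-145 with miR-145*, 0.51 for miR-143* with miR-145*, -0.02 for miR-143 with miR-143* and -0.01 for miR-143 with miR-145*, with exact permutation p-values of 0.118, 0.196, 0.964 and 0.984.

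**Figure D4:**
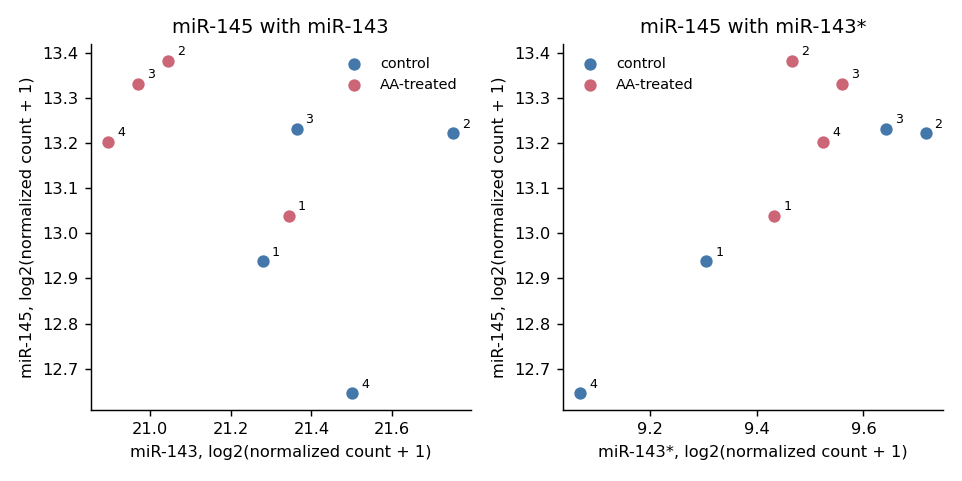
log2(normalized count + 1) of miR-145 (y axes) against that of miR-143 (left) and miR-143* (right) in each rat, with control rats in blue and AA-treated rats in red. On the left, AA-treated rats 2, 3 and 4 lie at lower miR-143 than all control rats, but only AA-treated rats 2 and 3 lie above all control rats for miR-145. On the right the control rats rise from control rat 4, and the AA-treated rats lie within a narrow range of miR-143*. Pearson's r was 0.84 over the 8 rats and 0.50 within the AA-treated rats.

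The miRNAs most like each member were taken as those with the highest Pearson r over the 8 rats among the 304 others with at least 10 counts in every rat, and these values are a description. For miR-143 they were miR-330* (r = 0.92), miR-140* (0.88), miR-338 (0.88), miR-148b-3p (0.88) and miR-411 (0.85). All 5 had lower means in the AA-treated rats, with log2 fold changes of -0.49, -0.73, -0.81, -0.79 and -1.04 in that order. Since r was taken over both groups, it favours miRNAs with the group difference of miR-143, so this direction is not a separate result. For deviations from the group means, r was 0.79, 0.70, 0.75, 0.69 and 0.63. Of the 5, miR-140*, miR-148b-3p and miR-411 were called lower, with adjusted p-values of 0.0252, 0.0154 and 0.0455 by edgeR, where 3.23% of all 620 rows were. These calls were lost in 7, 1 and 8 of 18 other settings, where adjusted p reached 0.0756 for miR-140* and 0.118 for miR-411. For miR-148b-3p the loss came with total counts. miR-338 was called in 5 of 18 other settings, among them the replicate block, which pairs rats of the same number (adjusted p = 0.0358 by edgeR). For miR-145 they were miR-301a (0.90), miR-16 (0.90), miR-9* (0.89), miR-200c (0.87) and miR-196c (0.85). None of these 5 was called. For miR-143* they were miR-145 (0.84), miR-16 (0.78), miR-196c (0.72), miR-301a (0.70) and miR-130a (0.68), so that 3 of the 5 were shared with miR-145. For miR-145* they were miR-10b (0.93), miR-130a (0.92), miR-29b (0.90), miR-362* (0.89) and miR-29a (0.88), and none of these was called. No member of the cluster was among the 5 for miR-143.

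Other miRNAs of the same cell types and programmes were read from lists that hold every arm of a set of hairpins, with 59 rows outside the cluster. Of these 59, 6 were called higher and 2 lower, where 5.81% of all 620 rows were called higher and 3.23% lower. The counts given for each list are to be read beside these shares. Only 3 list rows were called higher without control rat 2 or without control rat 3, and 11 with total counts, and the replicate block called 4 lower. Among striated muscle miRNAs, a list that holds miR-1 and miR-133a, which serum response factor and myocardin also drive, and others such as miR-206 and miR-499, 0 of 8 rows were called, with a median log2 fold change of -0.37. That median includes rows of few counts. Over the 4 rows with at least 10 counts in every rat it was -0.54, against -0.0044 over all 305 such miRNAs. Their most abundant row, miR-499, had 1770 ± 163 normalized counts in control and 1445 ± 383 in AA-treated rats (SD, n = 4 each), with an adjusted p of 0.444 by edgeR. Its log2 fold change was -0.29. Those of miR-1, miR-206 and miR-133a were -0.26, -0.79 and -0.87, with adjusted p-values of 0.593, 0.167 and 0.276 by edgeR. The summed level of this list was 2198 to 2533 in control and 1512 to 2423 in AA-treated rats.

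Among miRNAs outside the cluster known to act on smooth muscle growth and phenotype, 4 of 14 rows were called higher and 0 lower. Over all 620 rows these shares were 5.81% and 3.23%. Both arms of the miR-21 hairpin are among the called rows, so these are not all separate results. Of the rows not called, miR-26a lay below all control rats (log2 fold change -0.45, adjusted p = 0.139 by edgeR). miR-24-2* lay above all of them (0.48, adjusted p = 0.156 by edgeR). The median log2 fold change of the list was 0.33, but 0.14 over the 12 rows with at least 10 counts in every rat. miR-21 rose 3.83-fold, with 476470 ± 47788 normalized counts in control and 1825990 ± 708355 in treated rats (SD, n = 4 each, adjusted p = 2.76e-04 by edgeR). miR-21*, miR-221 and miR-222 rose by 1.58, 0.82 and 0.75 on the log2 scale, with adjusted p-values of 0.00184, 0.0253 and 0.0390 by edgeR. The call of miR-222 was lost in 10 of 18 other settings, among them the removal of any single rat (adjusted p 0.0568 to 0.152 by edgeR). That of miR-221 was lost in 4 of the 18, without control rat 2, 3 or 4 or AA-treated rat 3. miR-221 and miR-222 are known to favour proliferation of smooth muscle cells, but all of these miRNAs are made in other cell types too.

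Markers of other cell types in the tissue moved as follows, and their part in the values of the cluster was not tested. Among fibroblast and mesenchymal miRNAs, 0 of 4 rows were called. Their median log2 fold change was 0.67, and 0.60 over the 3 rows with at least 10 counts in every rat. Their summed levels were 6549 to 7896 in control and 7789 to 13670 in AA-treated rats. Their most abundant row, miR-199a-3p, had 4830 ± 367 and 7313 ± 1302 normalized counts (SD, n = 4 each), with an adjusted p of 0.0670 by edgeR. With the replicate block, miR-199a-3p and miR-199a-5p both passed, with adjusted p-values of 0.0436 and 0.0198 by edgeR. miR-199a-3p passed in 6 of 18 other settings in all, with adjusted p-values from 0.0143 to 0.169 over the 18. Among endothelial miRNAs 0 of 3 rows were called, with summed levels of 124118 to 164008 and 88893 to 137277. The median was -0.23, and -0.42 over the 2 rows with at least 10 counts in every rat. miR-126, which leads that list, had a log2 fold change of -0.23 (adjusted p = 0.527 by edgeR).

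Among leukocyte miRNAs 2 of 7 rows rose, where 5.81% of all 620 rows were called higher. These were miR-142-3p by 1.42 and miR-223 by 0.96 on the log2 scale (adjusted p = 7.92e-04 and 0.0231 by edgeR). The call of miR-223 was lost without control rat 1, 2 or 3. The summed level of the list was 13730 to 17815 in control and 29515 to 56715 in AA-treated rats, with no overlap. Most of that sum was miR-142-3p, with 11422 to 15439 and 26580 to 53269, so it is not a separate result. The other arm, miR-142-5p, overlapped between the groups, with a log2 fold change of 0.26 (adjusted p = 0.632 by edgeR). The median log2 fold change of the list was 0.96, and 0.74 over the 4 rows with at least 10 counts in every rat. Red cell miRNAs, a sign of blood left in the tissue, had 0 of 4 rows called and summed levels of 11079 to 16985 and 3402 to 11441. Their median was -0.63, and -0.71 over the 3 rows with at least 10 counts in every rat. miR-451, the most abundant of them, had an adjusted p of 0.167 by edgeR, and miR-144* passed only with the replicate block (adjusted p = 0.0414) or a term for the rats numbered 4. Among tubule epithelial miRNAs 2 of 19 rows fell, where 3.23% of all 620 rows were called lower. The median was -0.54, and -0.50 over the 13 rows with at least 10 counts in every rat. The rows called were miR-204, with a log2 fold change of -0.86, and miR-194*, with -0.88 (adjusted p = 0.0357 and 0.0386 by edgeR). These calls were lost in 8 and 10 of 18 other settings. The tubule sums were 526742 to 1269840 in control and 357213 to 521193 in AA-treated rats. miR-192, the most abundant row, had a log2 fold change of -0.84 (adjusted p = 0.168 by edgeR) that rested on control rat 4, and without this rat it was -0.28 (adjusted p = 0.481 by edgeR). No tubule row was called lower with TMM normalization, with total counts or without both rats numbered 4, nor when control rat 1, 2 or 4 or AA-treated rat 3 was left out.

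**Figure D5:**
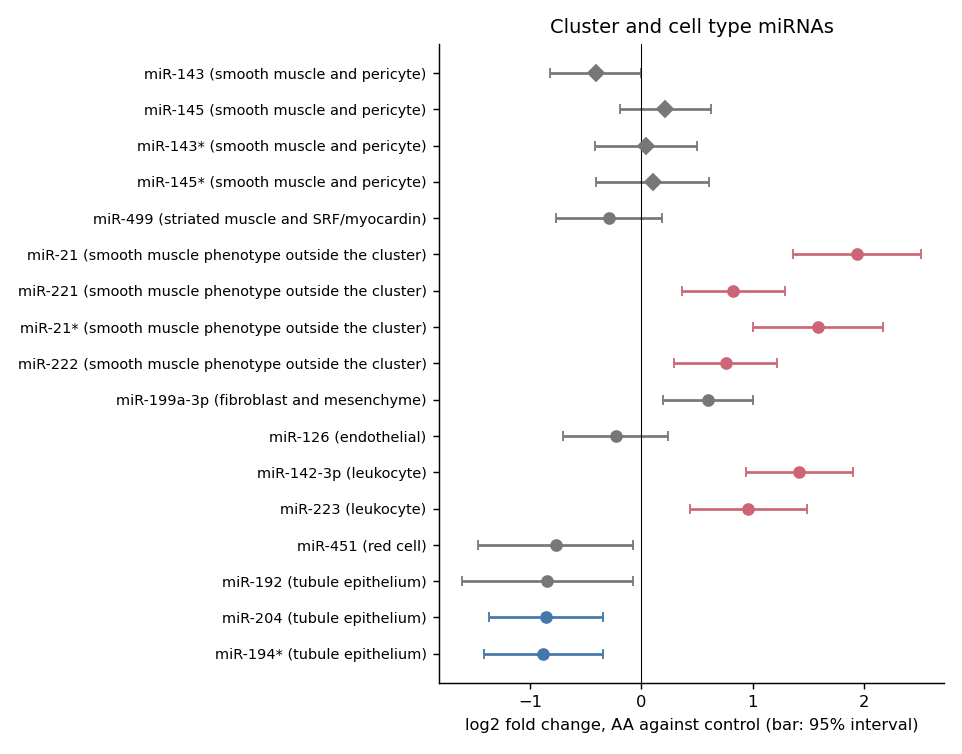
log2 fold change of AA-treated against control rats (x axis, bars are 95% intervals) for the cluster members (diamonds) and, from each list (named in brackets), the most abundant row and every called row (circles), with called rows in red (higher) or blue (lower) and the rest in grey. The interval of miR-143 ends at -0.01, those of the other members span 0, and miR-21 stands highest at 1.94.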

How the data were processed

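Small RNA libraries of 4 control and 4 AA-treated rat kidneys were analysed. Per the submitters' processing notes CASAVA 1.7 was used. The authors removed adaptors, assigned reads to miRBase rat miRNAs with the default parameters of miRanalyzer, and deposited whole-number read counts per mature miRNA, without normalization. The rule for reads matching several miRNAs and the genome build are not given in the sources used here. mRNA, proteomic and PCR data were not analysed here.

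All 620 rows were tested with edgeR 4.0.16 (quasi-likelihood, median-of-ratios size factors, no covariate, limma 3.58.1, R 4.3.3) and Benjamini-Hochberg adjustment, after testing on simulated data. Single values were compared by exact two-sided permutation tests with scipy 1.17.1 and numpy 2.4.6 under Python 3.11.15, tables were read with pandas 2.3.3 and figures drawn with matplotlib 3.10.9. Depth was 13412373 to 15616670 counts per rat. Members and lists were chosen with earlier results of these data known. The miRNAs named were the members, the most abundant and every called row of each list, the 5 most alike each member, and its neighbours in level. Other rows of the lists were named where they qualify a value given. Rats of the same number in the labels are different animals, but their deviations from the group means over 305 miRNAs correlated (r = 0.34, 0.52, 0.21 and 0.45), so a replicate block was also fitted. Pairs of different numbers gave r of -0.41 to 0.30. Control rat 3 was closer to AA-treated rat 2 (0.30) than to AA-treated rat 3 (0.21), so the pairing is not clean. Alternatives were other normalizations, a filter of 10 counts in 4 rats, DESeq2 1.42.0, limma-voom, robust moderation, a term for the rats numbered 4, and leaving out rats. Those for the 4 ratios chosen later were added after seeing the data.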

Additional observations from a re-analysis of the deposited data

Results flagged for a closer look

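Within each group of 4 rats, the highest or lowest value was flagged where its gap to the nearest other rat exceeded Dixon's critical share of the range of the group (95% level). Of 78 groups examined, 2 were flagged, where chance flags about 1 group in 20. For the miR-145 to miR-143 ratio, AA-treated rat 1 had 3.16 counts of miR-145 per 1000 counts of miR-143, where AA-treated rats 2, 3 and 4 had 4.83 to 5.01. For miR-192, a tubule miRNA, control rat 4 had 1124300 normalized counts, against 328824 to 454738 in the other control rats.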

How the results depend on the processing

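Over 18 other settings, the log2 fold change of miR-143 ranged from -0.51 to -0.16 (adjusted p 0.122 to 0.528) and that of miR-145 from 0.10 to 0.48 (adjusted p 0.191 to 0.735), without a change of sign or of call. With the replicate block, the log2 fold changes of miR-143, miR-145, miR-143* and miR-145* were -0.41, 0.23, 0.06 and 0.09 (adjusted p 0.177, 0.371, 0.852 and 0.773 by edgeR). The block raised the list rows called higher from 6 to 8 (miR-199a-3p and miR-199a-5p added) and those called lower from 2 to 4 (miR-194 and miR-144* added), called miR-338, and changed no other call of a named miRNA or ratio. miR-143* turned to -0.0054 with total counts without the 3 most abundant miRNAs and to -0.068 without both rats numbered 4, and ranged from -0.077 to 0.13 when single rats were left out, where miR-145* ranged from -0.016 to 0.23. Total counts gave 58 rows called higher and 11 lower in the whole table, 11 list rows higher and 0 lower, and log2 fold changes of 0.021 for miR-126, 0.22 for miR-10b and 0.25 for miR-29a. TMM gave 0 list rows called lower, 0.038 for miR-10b and 0.045 for miR-29a. A term for the rats numbered 4 gave 4 list rows lower. Without both of these rats there were 0, with 0.035 for miR-10b and 0.011 for the log2 difference of the miR-145* to miR-145 ratio. Leaving out single rats gave 3 to 7 list rows called higher and 0 to 2 lower, log2 fold changes of -0.28 to 0.29 for miR-10b and -0.090 to 0.059 for miR-29a, log2 differences of 0.51 to 0.80 for the miR-145 to miR-143 ratio, 0.11 to 0.21 for miR-145 to miR-143* and -0.053 to 0.17 for miR-145* to miR-143*, and r of -0.75 to -0.31 for miR-143 with miR-145. The cause of these changes was not tested.

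With 4 rats a group, a single rat can decide a call, and the asterisk arms rest on 152 to 905 counts per rat.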
